A study of Mus musculus with 6 samples.

Results

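Oxt, the mouse gene that encodes the precursor of oxytocin, was detected in the striatum on every array and was 7.68-fold higher in HuD-KO mice than in wild-type littermates (WT), while its level also varied more than 3-fold among the mice of each group. Its values come from 1 probe of a 1-colour microarray for mouse mRNAs and long non-coding RNAs. Oxt was found by its symbol in the authors' deposited tables of changed transcripts, and is 1 of the 1031 genes that these tables name on 1088 probes, out of 60915 target probes on the array. The tables hold transcripts past 2-fold, and past the authors' significance threshold of 0.05, between these same HuD-KO and WT arrays. Oxt stands in the one for higher levels in HuD-KO. It was thus chosen by its difference between the groups, which is given as a description with no test. HuD-KO mice lack the neuronal RNA-binding protein HuD, with the genotype label HuD KO (Elalvl4-/-), where the gene is Elavl4. The samples were the striata of 3 adult HuD-KO mice and 3 adult WT littermates with 1 array per mouse. Neither sex nor an age in weeks is given in the sources used here. Y-linked transcripts, given below, were higher on every HuD-KO array than on any WT array, so sex and genotype cannot be told apart. No promoter, Cre driver or cell type limits the knockout in those sources, which give no further treatment for either group.

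Oxytocin is a neuropeptide made chiefly by magnocellular and parvocellular neurons of the paraventricular and supraoptic nuclei of the hypothalamus. The precursor holds the hormone next to its carrier protein, a neurophysin, and is cleaved in secretory granules that travel along axons to the posterior pituitary and to forebrain targets, the nucleus accumbens of the ventral striatum among them. Striatal cells carry the oxytocin receptor, a Gq-coupled receptor through which the peptide takes part in social reward, whereas the cell bodies that transcribe Oxt are known mainly from the hypothalamus.

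All values for Oxt rest on a 60-base probe, shown here by its first 30 bases because it defines which RNA was measured. The probe, ASMM10P023789, is assigned to the transcript NM_011025, which the authors' deposited tables place on the plus strand of chromosome 2 from 130576173 to 130576988 with an RNA length of 471 bases, without naming a genome build. It spans chr2:130576929-130576988 in the same coordinates and so ends at the last base of the transcript. RefSeq gives the gene a span of 130574519 to 130577054 on chromosome 2 of GRCm38.p6, which holds that interval.
Oxt probe, first 30 bases: ctgagcccactttctgggaatacctttagc
The GC content of the whole probe was 58.3%, against a median of 45% over the 1088 named probes. The tables list no other transcript to which the Oxt probe could hybridize, whereas they do so for 179 of the named probes. The probe had 1 spot per array, so that no value below is an average over spots.

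The probe for Elavl4, the deleted gene, was well above background on 3 of 3 WT arrays and on 0 of 3 HuD-KO arrays. HuD-KO levels were lower by at least 15.5-fold (adjusted p by limma 0.001002), which is the direction of the genotype labels. The 75th percentile of the processed signal, used below to scale each array, lay between 441 and 609, and from 77.5% to 81.7% of the non-control spots were well above background. No target spot was saturated. All arrays shared 1 scan run. Their position numbers placed the 3 HuD-KO arrays and WT 1 in slide row 1 and WT 2 and WT 3 in slide row 2. One corner of the HuD-KO 2 array was dimmer than the rest, by -0.46 on the log2 scale against 0.04 elsewhere over its 7472 probes, and the Oxt spot lay outside it.

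The processed signal of the Oxt probe, an intensity after subtraction of the background, was 2759 in HuD-KO 1, 7844 in HuD-KO 2 and 2569 in HuD-KO 3. It was 531 in WT 1, 206 in WT 2 and 637 in WT 3. All 6 values were marked well above background by the scanner software, and none was saturated or marked as an outlier. The lowest signal that counted as well above background was between 14.7 and 18.8 on these arrays, so that the lowest Oxt signal, in WT 2, still lay far above the limit of detection. The software gave each Oxt signal an error of 10.0% to 10.1%.

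Relative to the 75th percentile of its array, the level of Oxt was 5.20 times that percentile in HuD-KO 1, 14.5 times in HuD-KO 2 and 4.22 times in HuD-KO 3. In WT it was 1.08 times in WT 1, 0.449 times in WT 2 and 1.45 times in WT 3. The 3 HuD-KO mice therefore all lay above the 3 WT mice, with WT 2 lowest and HuD-KO 2 highest. On the log2 scale the levels were 2.38, 3.86 and 2.08 in HuD-KO 1 to 3 and 0.11, -1.15 and 0.53 in WT 1 to 3. The mean log2 level was 2.77 ± 0.95 in HuD-KO and -0.17 ± 0.88 in WT (SD, n = 3 each), a difference of 2.94 with a standard error of 0.61 in the limma fit. In bulk tissue, a change in the number of cells that hold the transcript and a change in the amount of RNA per cell cannot be told apart.

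**Figure D1:**
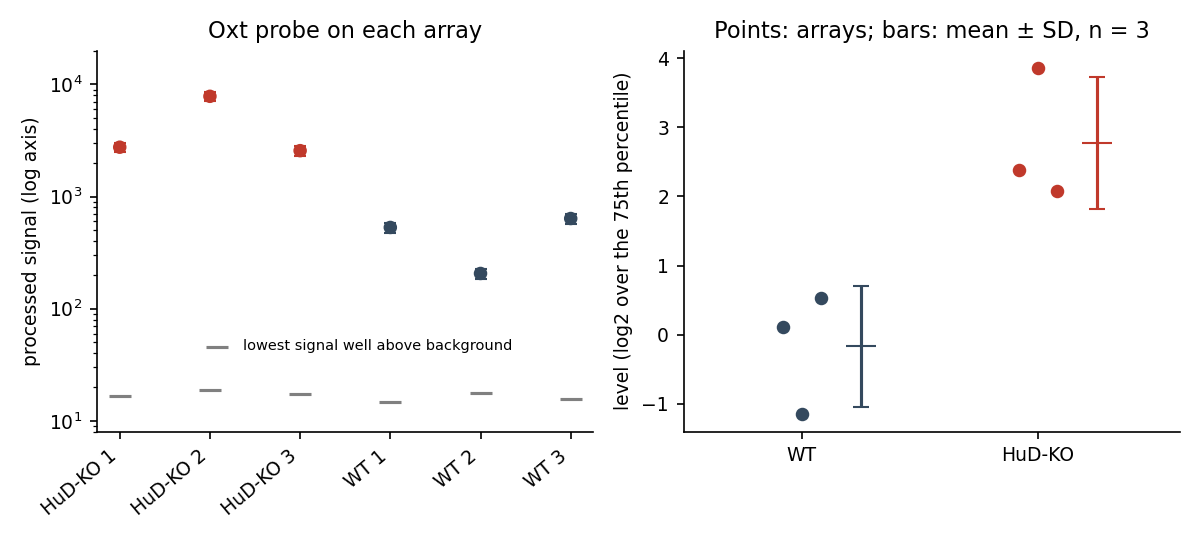
Left, processed signal of the Oxt probe on each of the 6 arrays on a log axis, with the error of the scanner software as bars and the lowest signal that counted as well above background as grey lines. Right, the same values as log2 level over the 75th percentile of the array, one point per mouse, with the mean ± SD (n = 3) beside each group. The HuD-KO points lie between 2.08 and 3.86 and the WT points between -1.15 and 0.53, so the groups do not overlap.

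The gap between the groups was smaller than the difference of their means. The lowest HuD-KO level, in HuD-KO 3, was 2.92-fold above the highest WT level, in WT 3, which is a gap of 1.54 on the log2 scale. From the highest HuD-KO level to the lowest WT level the difference was 32.3-fold. In order from the lowest level, the arrays stood as WT 2, WT 1, WT 3, HuD-KO 3, HuD-KO 1 and HuD-KO 2. HuD-KO 1 and HuD-KO 3, neighbours in that order, had signals that overlapped within the error of the scanner software, whereas HuD-KO 2 and WT 2 each stood apart from the other mice of their group by far more than that error.

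Among all 47857 probes tested, groups that did not overlap were common: 27.1% of the probes had every HuD-KO array above every WT array and 22.6% the reverse. Since the HuD-KO and WT arrays chose Oxt, nothing is read from its place among them. By size, 18 of the 44487 probes well above background on all 6 arrays, Oxt among them, had a difference at least as large in the direction of HuD-KO. Oxt was chosen by this difference, so nothing is read from this rank either. The median difference over the tested probes was 0.04.

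The spread of Oxt between mice of 1 group was the other feature of its values. Within HuD-KO the levels covered a 3.44-fold range and within WT a 3.22-fold range. Its SD of 0.95 in HuD-KO compares with a median of 0.11 over the 44487 probes well above background on all arrays, 99.3% of which had a smaller SD. In WT its SD of 0.88 compares with a median of 0.15, and 99.1% of the probes had a smaller one. At 12 probes in all, Oxt among them, the SD was at least that of Oxt in both groups. A spread of this size was thus uncommon among the probes. With 1 spot per array, the parts of the mouse, the labelling and the spot in it were not tested.

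**Figure D2:**
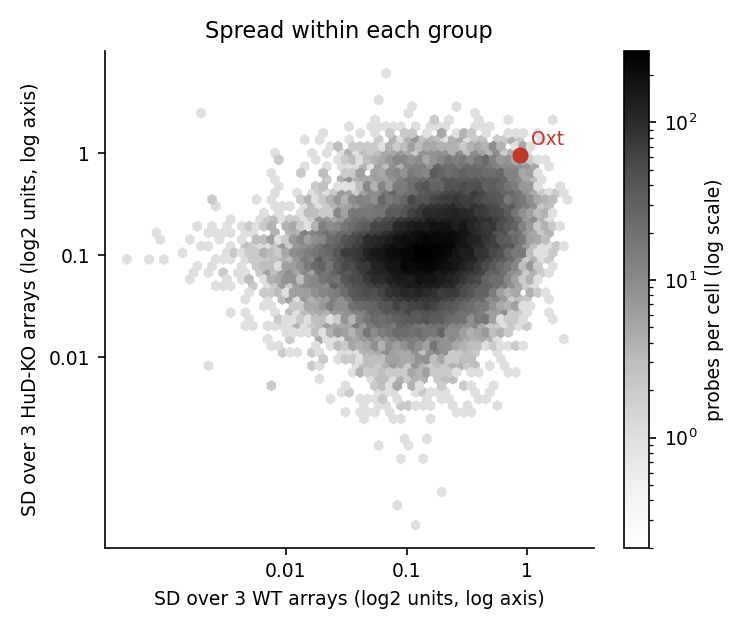
SD of the log2 level over the 3 WT arrays (x axis) against the SD over the 3 HuD-KO arrays (y axis), both on log axes, for the 44487 probes well above background on all 6 arrays, shaded by the number of probes per cell. Oxt, in red, lies at 0.88 on the x axis and 0.95 on the y axis, near the upper end of both.

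In each group 1 mouse set most of the spread. In HuD-KO 2 the level of Oxt was 1.63 above the mean of the other HuD-KO arrays on the log2 scale, and 99.95% of the probes deviated by a lower value on that array. In WT 2 the level was 1.48 below the mean of the other WT arrays, a deviation of -1.48 that 0.366% of the probes fell under. Leaving out HuD-KO 2 gave a difference of 2.40 between the groups (5.27-fold) and leaving out WT 2 a difference of 2.45 (5.46-fold). The largest value, 3.29 (9.80-fold), came from leaving out WT 3, and leaving out HuD-KO 3 gave 3.29 as well. Since the groups do not overlap, leaving out any 1 of the 6 mice could not change the direction.

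Slide row moved with the genotype, as row 2 held WT arrays alone, and the lowest and the highest WT value of Oxt both came from that row. Within row 1, where the 3 HuD-KO arrays stood beside WT 1, the difference was 2.66 (6.32-fold). Other ways of scaling gave 2.95 with quantile normalization and 2.78 (6.86-fold) with normexp background correction. The log2 values that the authors deposited were 11.3, 12.7 and 11.01 in HuD-KO 1 to 3 and 8.98, 7.67 and 9.40 in WT 1 to 3. Their means, 11.7 ± 0.93 and 8.68 ± 0.90 (SD, n = 3 each), differ by 3.00, or 7.98-fold, with the mice in the same order.

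**Figure D3:**
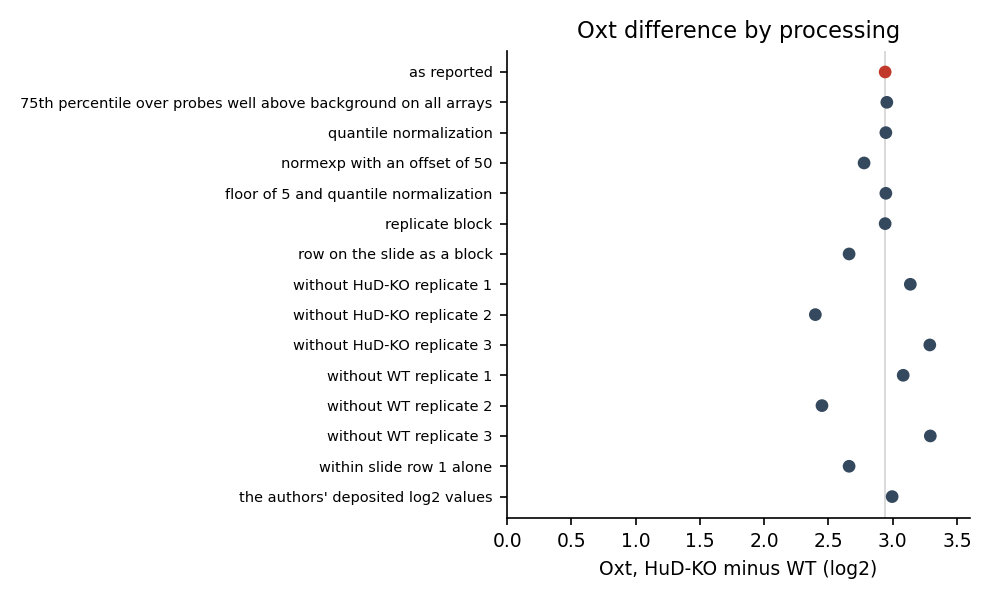
Difference of the mean log2 level of Oxt, HuD-KO minus WT, as reported (red) and under 14 other ways of processing or choosing the arrays (dark). All values lie between 2.40 and 3.29, and the grey line marks the reported 2.94.

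The other genes of the oxytocin system were looked at through lists, given here by their roles. Of 33 genes for the development of oxytocin neurons, the processing of the precursor, the release, reception and breakdown of the peptide, and the signalling of its receptor, 3 carried a name in the files and the other 30 were not analysed here. A gene has a name only where the authors listed it as changed by more than 2-fold, and past their significance threshold of 0.05, on these same arrays. Neither the directions, the calls nor the adjusted p-values of named genes are therefore independent evidence. Beside that, 15.8% of all tested probes were higher and 14.4% lower in HuD-KO at a limma adjusted p under 0.05. Blocking on slide row took these shares to 0.295% and 0.301%, or 141 and 144 probes. The 3 named genes were all lower in HuD-KO, opposite in direction to Oxt.

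Sim1, a transcription factor needed for the neurons of the paraventricular and supraoptic nuclei to form, had log2 levels of -2.50, -2.32 and -2.53 in HuD-KO 1 to 3 and -0.51, -0.26 and -1.31 in WT 1 to 3. In HuD-KO it fell by 1.75 on the log2 scale, or 3.37-fold (limma adjusted p = 0.00735). Its highest WT level was in WT 2, the mouse with the lowest Oxt, and its lowest in WT 3, the mouse with the highest Oxt of the group. Within HuD-KO, in contrast, Sim1 had the order of Oxt, highest in HuD-KO 2 and lowest in HuD-KO 3. Of the other factors of these neurons on the list, Otp, Arnt2, Pou3f2 and Esr2 were not analysed here.

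Pcsk1, a prohormone convertase that cuts peptide precursors in secretory granules, was at -0.61 ± 0.03 in HuD-KO and 0.45 ± 0.08 in WT (log2 level, SD, n = 3 each). It fell 2.08-fold (limma adjusted p = 0.00211), and its 3 HuD-KO arrays lay within a range far narrower than that of Oxt. No named probe belonged to the 7 genes for release, reception and breakdown, which include the oxytocin receptor Oxtr, the vasopressin receptors, Cd38 and Lnpep, so the receptor's level was not analysed here. Camk2a, a calcium-dependent kinase abundant in forebrain neurons and 1 of 15 genes listed for signalling below the receptor, fell from 6.07 ± 0.12 in WT to 4.59 ± 0.21 in HuD-KO (2.80-fold, limma adjusted p = 0.00266). When slide row was blocked in the fit, these 3 genes kept their direction but not the call, at a limma adjusted p of 0.0728 for Sim1, 0.0542 for Pcsk1 and 0.0583 for Camk2a.

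Markers of other regions that a striatal dissection could hold were set beside Oxt in the same way. Of 24 hypothalamic neuropeptides, Cck alone had a name, and it rose from 2.82 ± 0.18 in WT to 4.39 ± 0.22 in HuD-KO (2.96-fold, limma adjusted p = 0.00295). Cck encodes cholecystokinin, which neurons of the cortex also make in large amounts. Of 13 transcription factors of hypothalamic regions, Rax alone had a name, and it fell from -1.08 ± 0.19 to -2.95 ± 0.26 (3.65-fold, limma adjusted p = 0.00263). Avp, which encodes vasopressin and lies beside Oxt in the genome, was not analysed here, nor were Trh, Crh, Pomc, Hcrt or Pmch. Cck and Rax, the genes of these lists with a name, went in opposite directions, which the authors' listing had fixed. Nothing is read from this, and whether hypothalamic tissue contributed to the Oxt signal was not tested.

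None of the 8 pituitary genes and none of the 18 striatal genes, among them Drd1, Drd2, Adora2a and Ppp1r1b, carried a name, so the labelled tissue could not be checked against its defining markers. Neurod6, a transcription factor of excitatory cortical neurons and on the cortical list, rose by 1.69 on the log2 scale in HuD-KO (limma adjusted p = 0.00878). Of 6 thalamic genes, Tcf7l2 rose by 1.01 and Lef1 fell by 1.12 (limma adjusted p = 0.0245 and 0.0130). When slide row was blocked in the fit, none of Cck, Rax, Neurod6, Tcf7l2 and Lef1 kept its call, at limma adjusted p from 0.0565 for Rax to 0.231 for Tcf7l2. The part of other regions in the Oxt values was not tested.

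Genes of the choroid plexus, the epithelium in the ventricles next to the striatum that makes cerebrospinal fluid, were the largest named group on the lists. Of 17 genes of choroid plexus and ependyma, 6 had a name and the other 11 were not analysed here. All 6 fell in HuD-KO, with log2 differences from -3.97 (F5) to -1.17 (Sostdc1), where 14.4% of all tested probes were called lower. That each lay past 2-fold was fixed by the authors' listing on these arrays, so no shift of the group as a whole is read from them. F5, coagulation factor V, had log2 levels of -2.996, -0.18 and -2.91 in HuD-KO 1 to 3 and 1.89, 1.61 and 2.32 in WT 1 to 3 (limma adjusted p = 0.0139). Kcnj13, a potassium channel of this epithelium, was at -0.21, 1.51 and -0.27 in HuD-KO 1 to 3 and 3.27, 3.07 and 3.54 in WT 1 to 3 (limma adjusted p = 0.00894). Between the groups these genes therefore went the opposite way to Oxt.

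Within the groups, however, these genes shared with Oxt the highest HuD-KO mouse and the order of the WT mice, a pattern seen only after the values were known. All 6 genes, namely Kcnj13, Clic6, F5, Enpp2, Sostdc1 and Prlr, were highest in HuD-KO 2 among the HuD-KO mice, as Oxt was. The lower HuD-KO mice were not in 1 order: Kcnj13, Clic6 and Prlr were lowest in HuD-KO 3, as Oxt was. F5, Enpp2 and Sostdc1 were lowest in HuD-KO 1. All 6 were also lowest in WT 2 and highest in WT 3 among the WT mice, again as Oxt was. Over the 44487 probes well above background on all arrays, 37.1% were highest in HuD-KO 2, 30.3% had that order in WT and 13.8% had both, so this pattern alone is common. Among the other 11 genes of the lists measured on all arrays, 1 gene, Rax, had both. The part of choroid plexus tissue in the spread of Oxt was not tested.

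The sizes of these deviations differed between the groups. In HuD-KO 2 the deviation of Oxt from its group mean lay within the range of the 6 choroid plexus genes, of which F5 and Kcnj13 deviated more. In WT 2 and WT 3 the deviation of Oxt was larger than that of any of the 6. The F5 and Enpp2 spots lay in the dim corner of the HuD-KO 2 array. When slide row was blocked in the fit, the 6 genes kept their direction without a call, at limma adjusted p from 0.0771 for Clic6 to 0.231 for Sostdc1. Prlr and Sostdc1 also lost their calls under several other settings.

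**Figure D4:**
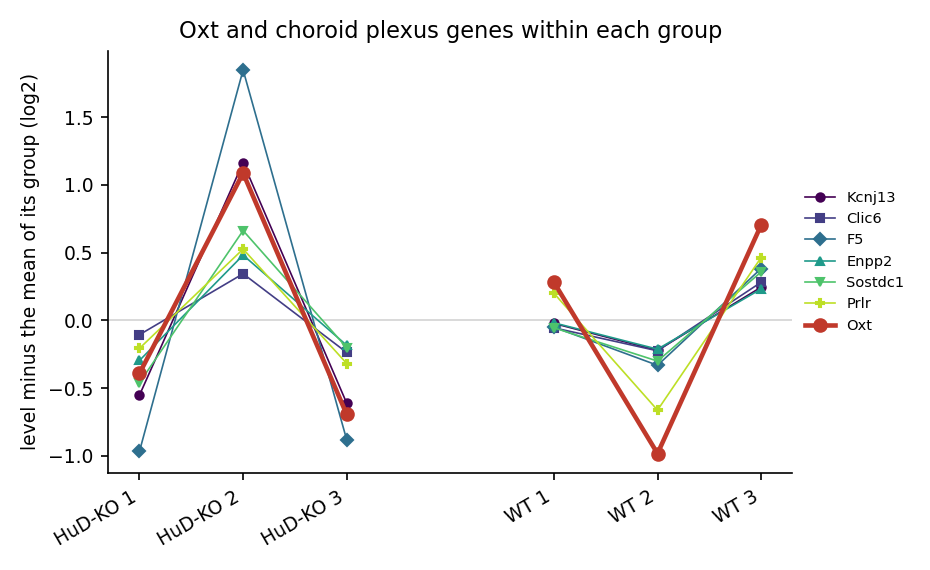
Log2 level minus the mean of the 3 arrays of the same group, for Oxt (thick red line) and the 6 named choroid plexus genes on each of the 6 arrays. Lines join the values of a gene and stand for no order of the mice. All 7 profiles peak in HuD-KO 2, are lowest in WT 2 and highest in WT 3 within their group.

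The groups also differed in transcripts of the Y chromosome, on which the labels give no information. Uty, a Y-linked histone demethylase, had log2 levels of 2.49, 2.56 and 2.59 in HuD-KO 1 to 3 and -3.08, -2.72 and -3.04 in WT 1 to 3. Eif2s3y, Kdm5d and Ddx3y, further Y-linked genes, were higher in HuD-KO as well. Kdm5d and Ddx3y were well above background on 0 of 3 WT arrays, at least 10.4-fold and 9.73-fold lower than in HuD-KO. Uty and Eif2s3y were well above background on 3 of 3 WT arrays. All 4 kept their call when slide row was blocked in the fit. Within each group the 3 mice were close to each other for Uty, unlike for Oxt. All 4 Y-linked genes lay higher on every HuD-KO array than on any WT array, so the groups may differ in sex. Sex, as marked by these transcripts, and genotype cannot be told apart on these arrays. On the list for the Y chromosome and X inactivation, Xist, Tsix and Zfy1 had no name and were not analysed here. The relation of sex to the level of Oxt was not tested.

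Around Oxt on chromosome 2, the authors' tables named 1 other gene within 1000000 bases, out of 43 protein-coding genes that RefSeq places in that window of GRCm38.p6. This gene, Adra1d, an adrenergic receptor for noradrenaline, starts 968368 bases beyond the end of Oxt. Its log2 levels were -0.47, -1.43 and -0.60 in HuD-KO 1 to 3 and -2.36, -3.44 and -2.11 in WT 1 to 3, a rise of 1.80 in HuD-KO, or 3.48-fold (limma adjusted p = 0.0231). Unlike Oxt, Adra1d was lowest in HuD-KO 2 among the HuD-KO mice, where its spot lay in the dim corner of the array. In WT it had the order of Oxt, lowest in WT 2 and highest in WT 3. Its call was lost when slide row was blocked in the fit (limma adjusted p = 0.198), with the methods' t-test, and without HuD-KO 1, HuD-KO 3 or WT 1.

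Among 845 named genes measured on all 6 arrays, the profile most like that of Oxt was looked for by the root mean square of the difference between the centred log2 profiles over the 6 arrays, where the median gene stood at 2.23. The 8 nearest genes lay between 0.65 and 0.84. They were Glp2r, the receptor for glucagon-like peptide 2, at 0.65, Grp, the neuropeptide gastrin-releasing peptide, at 0.70, Alox12b, a lipoxygenase, at 0.71, and Cldn23, a tight junction claudin, at 0.73. Hkdc1, a hexokinase, followed at 0.75, Eif2s3y at 0.79, Myh3, an embryonic myosin heavy chain, at 0.82, and Anxa13, an annexin, at 0.84. Likeness of this kind is set mostly by the difference between the groups, which for these 8 genes ran from 1.91 in Cldn23 to 3.61 in Eif2s3y. The 845 genes include those listed as lower in HuD-KO. Their median is therefore no measure of how near a gene that rose would lie to Oxt.

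Within the groups these profiles differed from that of Oxt. The level of Grp was 1.54, 1.39 and 1.47 in HuD-KO 1 to 3, with no rise in HuD-KO 2, and -0.86, -1.38 and -0.66 in WT 1 to 3. Glp2r was at 0.61, 0.41 and 0.64 in HuD-KO and at -2.25, -2.94 and -1.42 in WT. Of the 8 genes, 1, Cldn23, was highest in HuD-KO 2 as Oxt was. Myh3 and Anxa13 were lowest in WT 3 rather than in WT 2. Since all 6 arrays entered the choice of these genes, nothing is read from the values they share with Oxt. None of the genes with the nearest profiles had a rise in HuD-KO 2 of the size seen for Oxt. The spots of Hkdc1 and Anxa13 lay in the dim corner of that array.

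**Figure D5:**
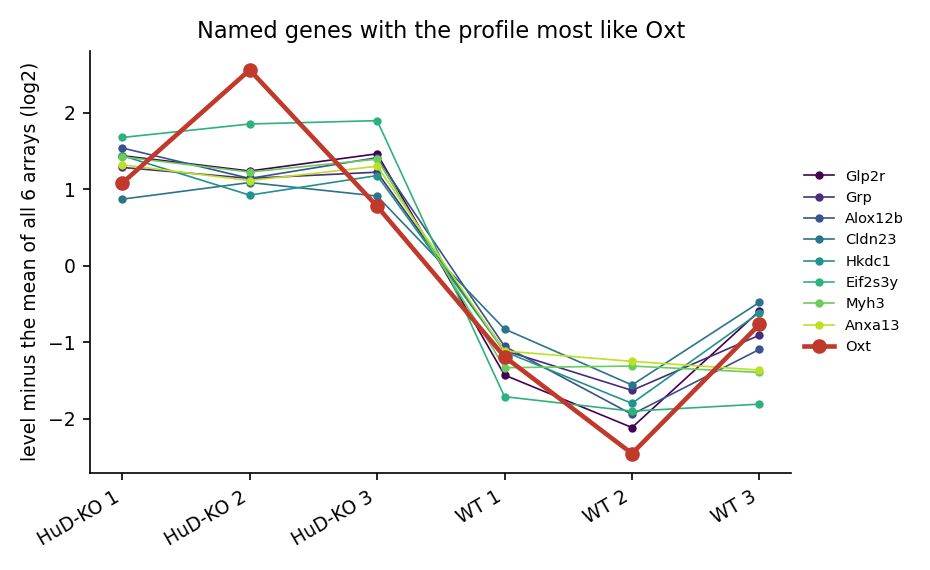
Log2 level minus the mean over all 6 arrays for Oxt (thick red line) and the 8 named genes whose profile was nearest to it. All 9 profiles are higher in the HuD-KO arrays than in the WT arrays, and Oxt stands above the others in HuD-KO 2 and below them in WT 2.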

How the data were processed

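Striatal RNA of 3 HuD-KO mice and 3 WT littermates was depleted of ribosomal RNA, then amplified from mixed oligo(dT) and random primers with Cy3 as the label, per the labels. The authors deposited scanner output holding the intensity of 62939 spots per array (Agilent Feature Extraction 11.0.1.1, background subtracted, no normalization between arrays, per the file headers). They also deposited tables of changed transcripts with raw intensity and log2 normalized values per array, a t-test p-value, an FDR and a fold ratio. The p-values and ratios were not used. The raw columns equal the processed signal floored at 5 within 0.1% in 100% of 6522 values. limma is named in the submitters' processing notes, and the method behind the deposited log2 values is not given in the sources used here.

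The log2 processed signal minus the 75th percentile of each array over its 61500 non-control spots was used as the level. Repeat spots were averaged. Outlier marks removed 65 of the 60915 target probes. A probe was tested when well above background on all 3 arrays of at least 1 group (47857 probes). HuD-KO and WT were compared with limma 3.58.1 in R 4.3.3 (lmFit, eBayes, two-sided, Benjamini-Hochberg over all tested probes), tested first on simulated data. Python 3.11.15 with pandas 2.3.3, numpy 2.4.6 and matplotlib 3.10.9 made the tables and figures. Where a group was not above background, the fold is a lower bound, with each array of that group set at its detection limit (the dimmest signal marked well above background) or at the probe's own signal if that was higher. For a gene with several probes the brightest was used. Enpp2, the listed gene with another named probe, fell by 1.16 there.

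Named genes were Oxt, Elavl4, all genes of 12 lists (132 genes, 19 with a name, of which 1 is not reported here), named genes within 1000000 bases of Oxt and the 8 with the nearest profile. Oxt and the lists were chosen with earlier results of these data known. The number of arrays limits the precision: with 3 mice per group the smallest exact permutation p for a single value is 0.1. Alternatives were other scalings, background correction, filters on dim probes, the methods' t-test, the replicate number or the slide row as a block, the deposited values and leaving out each array. For normexp the median spot signal was taken.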

Additional observations from a re-analysis of the deposited data

How the results depend on the processing

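The difference in Oxt stayed between 2.40 and 3.29 on the log2 scale under all 14 alternatives, within 1 SD of the arrays and with HuD-KO higher each time. Not all of these are separate checks. The replicate block returned the reported 2.94 and the slide row block the 2.66 of row 1 alone. The floor of 5 returned the 2.95 of quantile normalization. Leaving out an array could not change the direction, since the groups do not overlap. The number of probes called, 7583 higher and 6907 lower in HuD-KO, was 141 and 144 when slide row was blocked in the fit, and 2948 and 3537 with the replicate block. Leaving out 1 array gave 3401 to 7016 higher and 3629 to 6578 lower; it was over 1.5 times smaller in the higher direction without HuD-KO 1 (3401), HuD-KO 2 (4307), HuD-KO 3 (3827) or WT 1 (3414), and in the lower direction without HuD-KO 1 (3847), HuD-KO 3 (4075) or WT 1 (3629). The cause was not tested, and the slide row block leaves WT 1 as the only WT array set beside HuD-KO. Arrays with the same replicate number did not deviate together (correlations -0.03, -0.06 and -0.13). Whether same-numbered mice were littermates or handled together was not tested, as such correlations cannot show it.

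Of 417 values for the other 28 named genes under 15 alternatives, none reversed and 47 lost the call, 21 of them under the slide row. The other 26 belonged to Sostdc1, Prlr, Adra1d, Tcf7l2, F5, Enpp2 and Lef1. For each of the 28 genes the groups did not overlap in the main fit. A reversal was therefore impossible when an array was left out, a block was added, or the filter or the test was changed. Only the other scalings and the background correction were checks of direction. Sostdc1 had adjusted p from 0.0512 to 0.231 and Prlr from 0.0615 to 0.136 where their calls were lost. Of the 8 genes nearest to Oxt in profile, 5 were again among the nearest 8 with normexp and 7 or 8 with the other scalings. With 3 arrays per group and 1 spot each, the SD of the Oxt level between mice was 0.95 in HuD-KO and 0.88 in WT on the log2 scale. This SD is a spread and not the precision of a group mean, and an error of the probe itself could not be seen.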
